A study of Mus musculus with 4 samples.

Results

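Costimulatory receptors give lymphocytes a further signal beside that of antigen or alarmins, and in this account they are the genes of ICOS, CD28, CD226 and 5 TNF receptors, with the ICOS ligand and the adaptor TRAF1. The 10 genes are Icos, Cd28, Icosl, Cd226, Tnfrsf4, Tnfrsf9, Tnfrsf18, Tnfrsf25, Cd27 and Traf1. They were matched by symbol, each to 1 row, among the 38697 genes of the authors' comparison, and all 10 belong to the 19193 genes that have an adjusted p.

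The RNA came from group 2 innate lymphoid cells (ILC2s), lymphocytes that live in tissue and secrete type 2 cytokines, sorted from the lungs of C57BL/6 mice that had all received bleomycin, a drug that injures the lung. There were 2 KO samples, from R5/+Nrp1f/f mice, and 2 WT samples, from R5/+ mice. R5 is an Il5 allele that carries a reporter and Cre, present in both genotypes, so Nrp1 is deleted in cells that have switched on Il5. Each sample was a pool of 3 to 4 mice, and their ages are not stated. The p-values measure at most the spread between such pools, not between single mice. Which library columns entered the authors' test could not be told. The values below are the authors' genotype comparison. Values per sample were not analysed here, because the library columns could not be tied to samples. The table's name puts WT first and its numerator is not stated. Its sign was therefore turned to KO over WT, the reading under which the targeted gene, Nrp1, is lower in KO (log2 fold change -1.18). With the opposite reading each direction below would turn, and Nrp1 would be higher in KO.

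ICOS and CD28 belong to one immunoglobulin-like family, bind B7-type ligands and signal through phosphoinositide 3-kinase. Mouse lung ILC2s are known to carry both ICOS and its ligand, and their pairing is known to sustain ILC2 survival and cytokine output. The TNF receptors GITR (Tnfrsf18), 4-1BB (Tnfrsf9), OX40 (Tnfrsf4), DR3 (Tnfrsf25) and CD27 bind ligands of the TNF family and signal through TRAF adaptors, which lead to NF-kB and MAP kinases.

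The targeted gene was lower in KO. The log2 fold change of Nrp1 in the authors' deposited table was -1.18 ± 0.21 (SE), with 1.27e-04 as its adjusted p, which is the ratio 0.442 of KO over WT. Its level derived from that table was 236 normalized counts per kb of exon in KO and 534 in WT. By the authors' deposited table, 0 of 10 ILC2 marker genes rose and 0 fell at an adjusted p under 0.05, which 0.552% of all tested genes passed. At an unadjusted p under 0.05, 5 were lower and 0 higher. By that rule 3.95% of all tested genes were lower, and 12.1% of those within the costimulator genes' range of mean normalized count. That range ends at 16604, and some markers lie above it, Id2 (43668) among them. All 10 markers lay below 0 as deposited, and 6 after the centring described with the costimulator genes. The median log2 fold change over the 10 markers was -0.33. The most abundant was the transcription regulator Id2, at 17911.5 normalized counts per kb. Its log2 fold change in the authors' deposited table was -0.07 ± 0.14 (adjusted p = 0.872).

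None of the 10 costimulator genes passed the authors' test at an adjusted p under 0.05, where 0.552% of all tested genes did, and 0.328% of the 5794 tested genes within the members' range of mean normalized count. All 10 had a log2 fold change below 0 as deposited, and 6 of 10 after centring, when Icos, Cd28, Icosl and Cd27 lay above 0. Centring subtracts -0.25, the median log2 fold change of genes with a mean normalized count of at least 1000. As deposited, 46% of all tested genes and 87% of those within that range lay below 0. At an unadjusted p under 0.05, 4 of the 10 were lower in KO (Tnfrsf25, Tnfrsf9, Traf1 and Tnfrsf18) and 0 were higher. The share of genes lower by that rule was 3.95% over all tested genes and 12.1% within the members' range, and the share higher was 9.62% and 0.449%. The median log2 fold change was -0.43 over the members, 0.08 over all tested genes and -0.23 within that range. In bulk RNA, fewer cells of a type and less RNA per cell cannot be told apart.

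The 4 genes lower at an unadjusted p under 0.05 are 3 TNF receptors of chromosome 4 and the adaptor that binds such receptors. The sequences at their starts are shown side by side, and that rule chose them. Their log2 fold changes lay within 0.12 of each other. Cd226, at -0.50, lay in the same span but did not pass that rule and had no matched RefSeq window. The windows run from 250 bases before to 50 after a RefSeq start (GRCm38.p6, the build of mm10), 5′ to 3′. Capitals mark matches on either strand to a loose NF-kB motif, GGG and CC around any 5 bases, or to TGANTCA, the AP-1 motif.
Tnfrsf25, first start (chr4:152115684-152115983, plus strand): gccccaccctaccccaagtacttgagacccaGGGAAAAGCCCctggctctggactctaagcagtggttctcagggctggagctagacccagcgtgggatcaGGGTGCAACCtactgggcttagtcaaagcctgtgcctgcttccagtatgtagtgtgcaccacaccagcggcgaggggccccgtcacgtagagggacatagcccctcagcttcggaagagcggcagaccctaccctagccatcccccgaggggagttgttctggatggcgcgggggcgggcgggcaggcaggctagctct
Tnfrsf25, second start (chr4:152116093-152116392, plus strand): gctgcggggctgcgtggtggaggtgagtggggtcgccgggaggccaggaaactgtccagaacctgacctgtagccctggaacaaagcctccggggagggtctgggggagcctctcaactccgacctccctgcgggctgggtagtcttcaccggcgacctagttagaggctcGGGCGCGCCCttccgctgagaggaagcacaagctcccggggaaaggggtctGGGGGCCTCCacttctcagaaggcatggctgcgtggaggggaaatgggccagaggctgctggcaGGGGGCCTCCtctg
Tnfrsf9, first start (chr4:150919905-150920204, plus strand): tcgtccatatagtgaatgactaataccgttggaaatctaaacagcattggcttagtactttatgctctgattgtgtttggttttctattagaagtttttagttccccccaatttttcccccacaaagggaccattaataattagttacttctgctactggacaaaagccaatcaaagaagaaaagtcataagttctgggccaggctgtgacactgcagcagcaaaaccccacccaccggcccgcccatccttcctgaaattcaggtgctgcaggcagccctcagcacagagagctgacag
Tnfrsf9, second start (chr4:150927749-150928048, plus strand): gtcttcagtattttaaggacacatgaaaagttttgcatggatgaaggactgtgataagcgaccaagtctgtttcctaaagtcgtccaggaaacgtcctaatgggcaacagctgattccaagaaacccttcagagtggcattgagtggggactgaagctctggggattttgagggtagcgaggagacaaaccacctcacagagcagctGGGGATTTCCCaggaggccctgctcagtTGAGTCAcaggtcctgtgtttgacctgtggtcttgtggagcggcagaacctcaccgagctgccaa
Tnfrsf18 (chr4:156026072-156026371, plus strand): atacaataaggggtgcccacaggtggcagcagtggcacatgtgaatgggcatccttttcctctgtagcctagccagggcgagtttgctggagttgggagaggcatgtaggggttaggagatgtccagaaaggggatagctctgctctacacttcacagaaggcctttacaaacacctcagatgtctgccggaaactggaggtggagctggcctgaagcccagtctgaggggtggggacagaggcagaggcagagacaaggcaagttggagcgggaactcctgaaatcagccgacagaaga
Traf1 (chr2:34961723-34962022, minus strand): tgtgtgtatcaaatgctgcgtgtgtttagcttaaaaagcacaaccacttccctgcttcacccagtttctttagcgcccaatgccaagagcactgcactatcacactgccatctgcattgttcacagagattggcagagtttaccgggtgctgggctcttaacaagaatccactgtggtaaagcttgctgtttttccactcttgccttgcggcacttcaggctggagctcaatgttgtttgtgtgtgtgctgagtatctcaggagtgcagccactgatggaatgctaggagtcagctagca

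The second start of Tnfrsf9 held 2 overlapping NF-kB matches in one capital run and 1 AP-1 match, while its first start held 0 of either. Each start of Tnfrsf25 held 3 NF-kB matches, of which 2 overlap in the first start, and 0 AP-1 matches. No match was found in these windows of Tnfrsf18 and Traf1. RefSeq windows were matched for 7 of the 10 genes, 9 windows in all, and 5 of these held the NF-kB motif and 1 the AP-1 motif. Among all 32851 windows of that length, 50.8% held the NF-kB motif and 7.81% the AP-1 motif. A match describes letters and is not a binding site.

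Levels were set side by side as normalized counts per kb of exon. Icos was the highest of the 10, at 4841 per kb, above 99.3% of tested genes. Tnfrsf18 followed at 3490.45 per kb, then Tnfrsf25 at 994, Traf1 at 992 and Tnfrsf9 at 798. Icosl lay at 389, Tnfrsf4 at 239, Cd27 at 151, Cd28 at 108 and Cd226 at 78.4 normalized counts per kb, the last above 69.5% of tested genes. The spread between libraries was not used here, so neighbours in this order carry no test. Counted per kb of the longest transcript instead, Traf1 (2545 per kb) stood above Tnfrsf25 (1362 per kb), and the order of the others was the same.

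**Figure D1:**
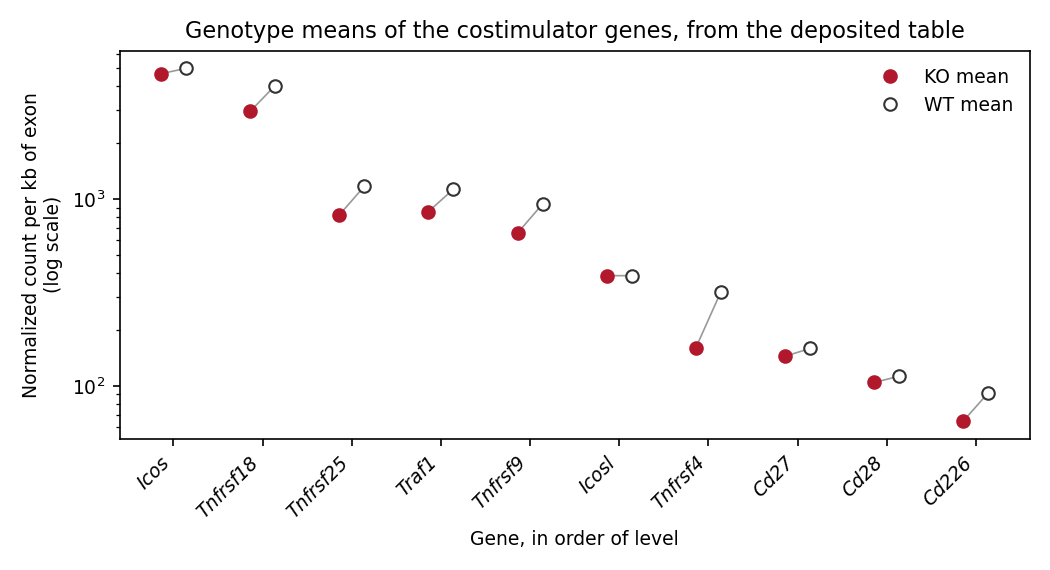
Genotype means of the 10 genes in normalized counts per kb of exon (log axis), derived from the deposited mean and fold change, with KO as filled and WT as open points and a line joining each pair. Icos and Tnfrsf18 stand highest, from 2939.8 to 5000.4 per kb, and no KO mean lies above its WT mean before centring, after which Icos, Cd28, Icosl and Cd27 were above 0.

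Icos (ENSMUSG00000026009, chromosome 1, 60977927 to 61000320, plus strand, mm10) encodes the inducible costimulator. Its derived level was 4681 normalized counts per kb in KO and 5000.4 in WT. The authors' deposited table gave a log2 fold change of -0.10 ± 0.14 (SE), with adjusted p = 0.812. The 95% interval of the ratio of KO over WT ran from 0.778 to 1.13. Its standard error on the log2 scale is the smallest of the 10 genes, and a fall of the size seen for Nrp1 lies outside it.

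Cd28 (ENSMUSG00000026012, chromosome 1, 60716800 to 60773359) encodes the receptor for CD80 and CD86. The derived level was 104 normalized counts per kb in KO and 113 in WT, and the log2 fold change in the authors' deposited table was -0.11 ± 0.25 (adjusted p = 0.887). The level of Icos per kb of exon was 44.7 times that of Cd28, and 33.6 times per kb of the longest transcript, while their log2 fold changes differed by 0.02. Both genes lie on the plus strand of chromosome 1 with Ctla4, an inhibitory receptor of the same family, between them. Ctla4 lies 114 kb from Cd28 and 62.1 kb from Icos, and the authors' deposited table lists it at -0.07 ± 0.44 on the log2 scale (adjusted p = 0.968). Ctla4 had 60.0 normalized counts per kb.

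Icosl (ENSMUSG00000000732, chromosome 10, 78069302 to 78083913) encodes the ligand of ICOS. Its derived level was 388 normalized counts per kb in KO and 389 in WT, and the log2 fold change in the authors' deposited table was within 0.01 of 0, with an SE of 0.18 (adjusted p = 0.998). The 95% interval of the ratio of KO over WT was 0.780 to 1.28. The receptor gene's level per kb was 12.5 times that of the ligand gene.

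Cd226 (ENSMUSG00000034028) encodes DNAM-1, an activating receptor for the nectin-family proteins PVR and NECTIN2. It had the lowest level of the 10, at 64.9 normalized counts per kb in KO and 91.9 in WT. Its log2 fold change in the authors' deposited table, -0.50 ± 0.33 (adjusted p = 0.522), was about the size of those of Tnfrsf9 and Tnfrsf25, with a wider error. The interval of the ratio, 0.451 to 1.11, includes 1. For the ligand genes, the authors' deposited table gave log2 fold changes of 0.42 ± 0.35 for Pvr (adjusted p = 0.645) and 0.94 ± 0.86 for Nectin2 (adjusted p = 0.679).

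**Figure D2:**
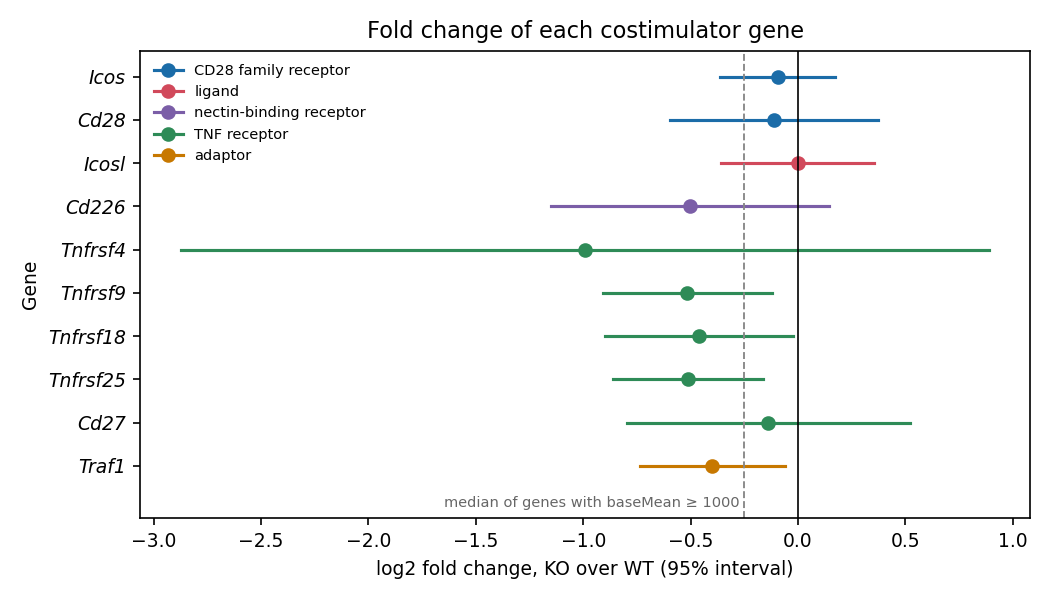
Log2 fold change of KO over WT for each gene, with its 95% interval, coloured by role. The dashed line at -0.25 is the median of genes with a mean normalized count of at least 1000. The intervals of Tnfrsf9, Tnfrsf18, Tnfrsf25 and Traf1 exclude 0 but include the dashed line.

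Among the TNF receptors, Tnfrsf25 (ENSMUSG00000024793, chromosome 4, 152115934 to 152120119) had the smallest p of the 10 genes. It encodes DR3, the receptor of TL1A, which is known to costimulate ILC2s. The derived level was 819.8 normalized counts per kb in KO and 1168 in WT. In the authors' deposited table its log2 fold change was -0.51 ± 0.18, with an unadjusted p of 0.00415 and an adjusted p of 0.141. The ratio of KO over WT was 0.702, with a 95% interval of 0.551 to 0.894.

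Tnfrsf9 (ENSMUSG00000028965, chromosome 4, 150914562 to 150946102) encodes 4-1BB, an inducible receptor. At 657 normalized counts per kb in KO and 939 in WT, its derived ratio was 0.700. In the authors' deposited table the log2 fold change was -0.52 ± 0.20 (unadjusted p = 0.0104, adjusted p = 0.192). It lies 1170 kb from Tnfrsf25 on the same strand, and their log2 fold changes differed by less than 0.01.

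Tnfrsf18 (ENSMUSG00000041954, chromosome 4, 156026164 to 156028895) encodes GITR, which is known to activate ILC2s in mice. Its derived level was 2939.8 normalized counts per kb in KO and 4041 in WT. The authors' deposited table gave a log2 fold change of -0.46 ± 0.22 (unadjusted p = 0.0398, adjusted p = 0.334). The antisense gene Gm16008, looked up for its position after the values were seen, shares 414 exonic bases with Tnfrsf18, or 27.2% of its exonic length. No strand marking is stated for these libraries, so reads of the pair cannot be told apart there and the value of Tnfrsf18 is uncertain to that extent. Gm16008 itself is listed in the authors' deposited table at -0.45 ± 0.26 (adjusted p = 0.439).

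Tnfrsf4 (ENSMUSG00000029075, chromosome 4, 156013843 to 156016612) encodes OX40 and lies 9551 bases from Tnfrsf18 on the same strand. Of the 10 genes it had the most negative log2 fold change in the authors' deposited table, at -0.99 ± 0.96 (adjusted p = 0.696). Its derived level was 160.1 normalized counts per kb in KO and 318 in WT. The 95% interval of the ratio, 0.136 to 1.85, covers both a fall and a rise. The standard error was 3.00 times the median of the 200 genes nearest in mean normalized count, and 198 of those 200 had a smaller one. Tnfrsf18, its neighbour, had 14.6 times its level per kb and a standard error of 1.38 times the corresponding median.

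Cd27 (ENSMUSG00000030336, chromosome 6, 125232622 to 125237010, minus strand) encodes the receptor for CD70. It had 144 normalized counts per kb in KO and 158 in WT. The authors' deposited table put its log2 fold change at -0.14 ± 0.34 (adjusted p = 0.900), and the interval of the ratio was 0.575 to 1.44. Summed over the 5 TNF receptors, the derived levels were 4721 normalized counts per kb in KO and 6625 in WT, most of it Tnfrsf18.

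**Figure D3:**
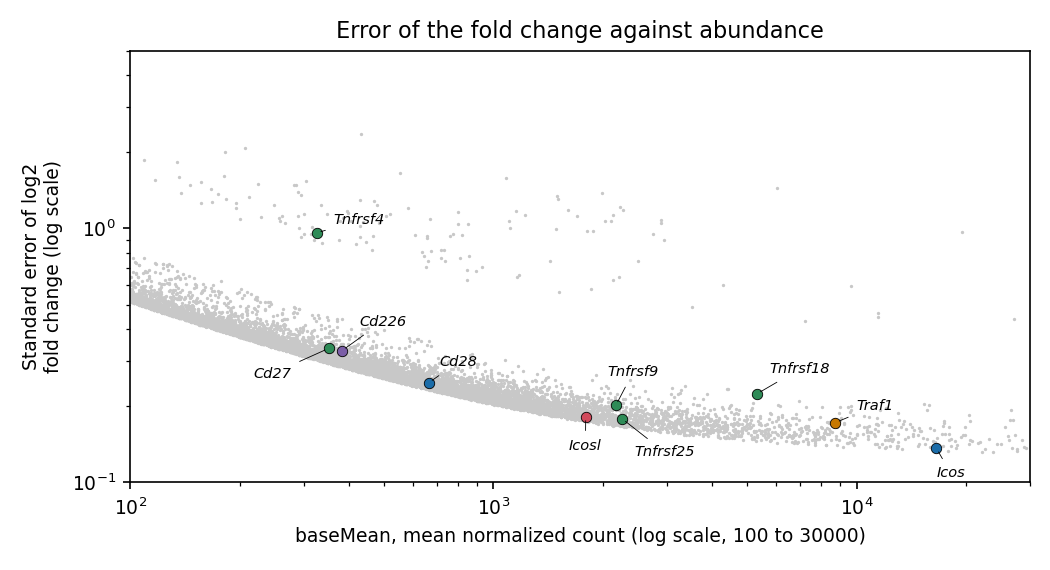
Standard error of the log2 fold change against mean normalized count (both log axes) for tested genes in grey and the 10 genes in colour. Tnfrsf4 stands at 0.96, apart from the band of genes of its abundance, in which Cd27 (0.34) and Cd226 (0.33) lie.

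Traf1 (ENSMUSG00000026875, chromosome 2, 34941750 to 34961772, minus strand) encodes an adaptor that binds several of these receptors, 4-1BB among them, and is itself a known NF-kB target. Its derived level was 855 normalized counts per kb in KO and 1128 in WT. Its log2 fold change in the authors' deposited table was -0.40 ± 0.17 (unadjusted p = 0.0201, adjusted p = 0.251). The ratio of KO over WT was 0.758, with an interval of 0.600 to 0.958.

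Centred on the median of -0.25 for genes of high mean count, with p from the deposited error and a normal distribution, Tnfrsf25 stood at -0.26 (unadjusted p = 0.146), Tnfrsf9 at -0.26 (0.189), Tnfrsf18 at -0.21 (0.353) and Traf1 at -0.15 (0.389). Icosl stood at 0.25 (0.169) and Icos at 0.16 (0.251) on that scale. Tnfrsf4 and Cd226 remained below 0, at -0.74 (0.441) and -0.25 (0.449).

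**Figure D4:**
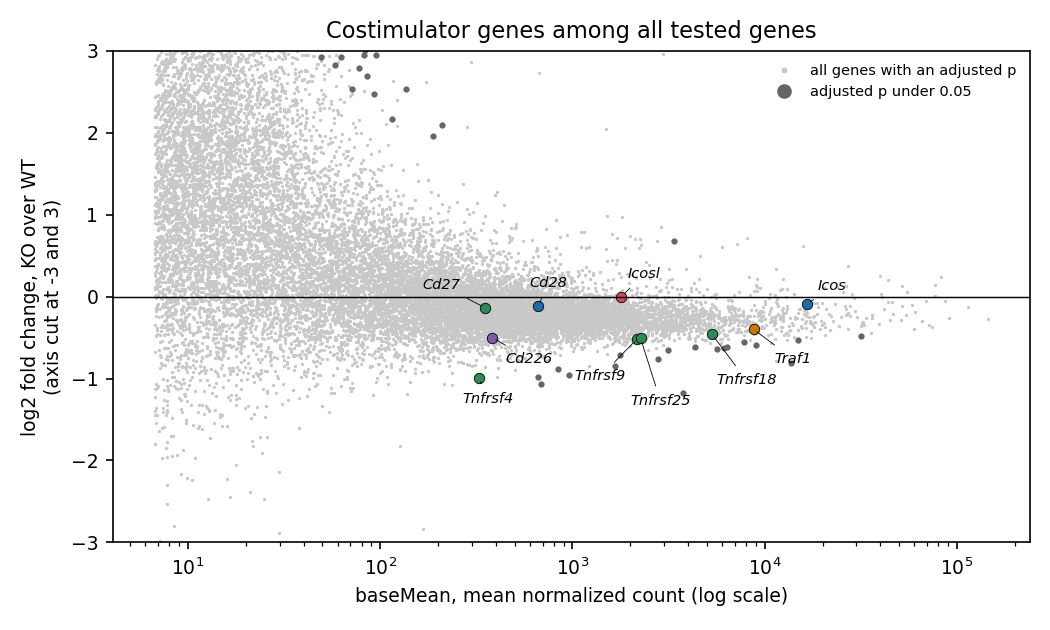
Log2 fold change of KO over WT against mean normalized count (log axis) for all tested genes in grey, those with an adjusted p under 0.05 in dark grey, and the 10 genes in colour, with genes beyond -3 and 3 not drawn. The 10 genes lie between -0.99 and 0.00, in the abundance range where the grey cloud is mostly below 0.

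The other genes of these pathways were read from 4 lists, of which 77 of 78 genes were in the table and tested. By the authors' deposited table, 0 of them rose and 0 fell past the same threshold. By the unadjusted rule 11 were lower and 1 was higher, against 3.95% lower and 9.62% higher over all tested genes, and 12.1% lower and 0.449% higher within the costimulator genes' range of mean normalized count.

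Of 26 CD28 and ICOS signalling genes, 24 lay below 0 as deposited and 16 after centring, with a median log2 fold change of -0.28. Pik3cd, the leukocyte catalytic subunit of phosphoinositide 3-kinase, had a log2 fold change in the authors' deposited table of -0.54 ± 0.17 (adjusted p = 0.0953). On the same scale the authors' deposited table lists Inpp5d, the phosphatase SHIP1, at -0.42 ± 0.16 (adjusted p = 0.180).

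Of 18 TRAF and TNF receptor signalling genes, 16 lay below 0 as deposited and 9 after centring, with a median of -0.25. The authors' deposited table lists Traf2, which forms complexes with TRAF1, at -0.50 ± 0.21 (adjusted p = 0.219) and Traf3, which restrains non-canonical NF-kB, at -0.46 ± 0.21 (adjusted p = 0.299). Tnfaip3, which encodes an NF-kB feedback inhibitor, is listed in the authors' deposited table at -0.28 ± 0.13 (adjusted p = 0.307), close to the median of abundant genes.

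The other family receptors had a median of 0.19 over 24 tested genes, with 10 below 0 as deposited and 6 after centring. Their mean normalized counts ran from 7.79 to 11466. The median log2 fold change was 0.08 over all tested genes and -0.23 within the costimulator genes' range of mean normalized count. The centring value comes from genes with a mean of at least 1000, so counts after centring do not allow for abundance in genes of low count. Among them the authors' deposited table lists Tnfrsf1b, which encodes a receptor for TNF, at a log2 fold change of -0.35 ± 0.18 (adjusted p = 0.366). At a mean normalized count of 27.4, Slamf1 had the value 3.00 ± 1.24 (adjusted p = 0.226) in that table, and Tnfrsf12a, the TWEAK receptor gene, 0.55 ± 0.30 (adjusted p = 0.416). Of 9 further ligands, with mean normalized counts from 13.2 to 930, 4 lay below 0 as deposited and 1 after centring. Cd80, a ligand of CD28, had a mean normalized count of 13.2 and a log2 fold change in the authors' deposited table of 1.70 ± 1.37 (adjusted p = 0.618).

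**Figure D5:**
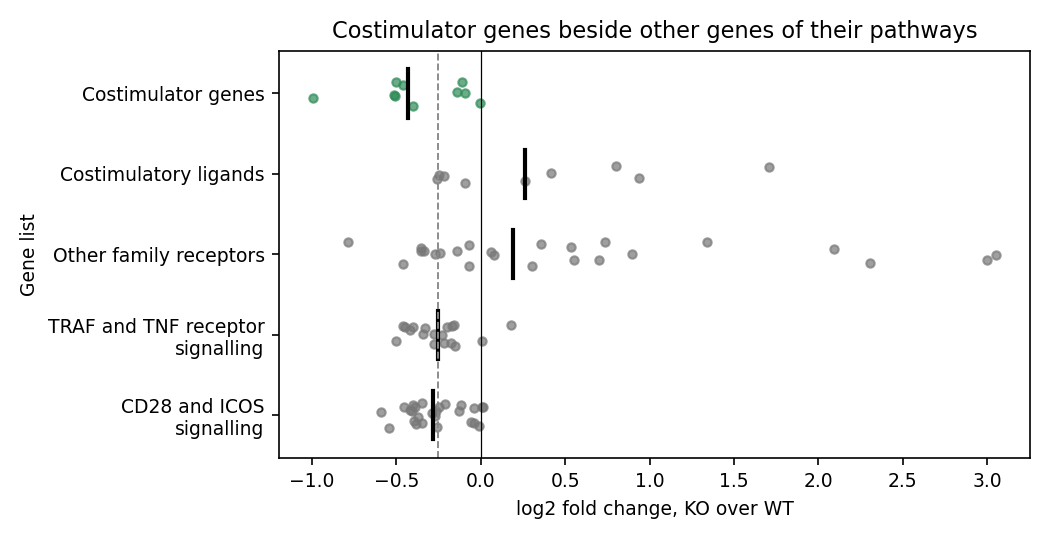
Log2 fold change of KO over WT for the 10 costimulator genes and for tested genes of 4 related lists, a point per gene, with the list median as a black bar and the median of abundant genes (-0.25) as a dashed line. The medians are -0.43, 0.26, 0.19, -0.25 and -0.28 from top to bottom. The lists differ in mean normalized count, for which these medians do not allow.

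T cells also express Icos, Cd28 and Cd27, and B cells and antigen-presenting cells express Icosl. The 10 T cell markers summed to 6877 normalized counts per kb in KO and 9176 in WT, and 7 of the 9 tested lay below 0 as deposited and 6 after centring. Of these the authors' deposited table calls 1, Cd3g, a CD3 chain, which fell by 0.96 ± 0.24 in log2 terms (adjusted p = 0.0292). Cd3e had 12.7 normalized counts per kb, Cd4 3.42 and Cd8a 1.06. The receptor constant genes Trbc1 and Trbc2 had 3923 and 3649, which is most of the T cell sums. In log2 terms the authors' deposited table lists Cd3e at -0.44 ± 0.71 (adjusted p = 0.840) and Cd4 at 1.25 ± 1.40 (adjusted p = 0.747). Cd8a, at 5.70 ± 3.08 and a mean normalized count of 3.84, has no adjusted p. The 6 B cell markers summed to 111 normalized counts per kb in KO and 68.3 in WT, with mean normalized counts from 13.6 to 67.3. The most abundant, Cd79b, is listed in the authors' deposited table at -0.06 ± 0.62 in log2 terms (adjusted p = 0.980). The 9 macrophage, monocyte and dendritic cell markers summed to 9959 in KO and 8865 in WT, with Lyz2 the most abundant. Sums for 3 regulatory T cell markers were 114 in KO and 102 in WT, most of it Ikzf2, at 88.1 normalized counts per kb. Foxp3, of the same list, had 2.15. The 6 NK cell and ILC1 markers, led by Gzma, summed to 34.3 in KO and 20.6 in WT. Lung epithelial markers, led by Sftpc, summed to 12438 in KO and 6143 in WT, and endothelial ones, led by Pecam1, to 596 in KO and 474 in WT. These sums carry no error. For Sftpc, the authors' deposited table lists 0.60 ± 1.44 in log2 terms (adjusted p = 0.897). By the unadjusted rule 2 of 9 tested T cell markers were lower and 0 higher. Higher by that rule were 1 of 6 B cell, 2 of 9 macrophage, monocyte and dendritic cell and 1 of 5 epithelial markers, with 0 lower. Over all tested genes the shares were 3.95% lower and 9.62% higher. The other non-ILC2 lists had 0 of either. As deposited, 1 of 6 B cell, 1 of 9 macrophage, monocyte and dendritic cell, and 1 of 3 regulatory T cell markers lay below 0. So did 1 of 5 epithelial, 0 of 5 endothelial and 0 of 3 tested NK cell and ILC1 markers. No listed marker had a mean normalized count of 0. The part of these cells in the values of the 10 genes was not tested.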

How the data were processed

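RNA was measured in 2 KO and 2 WT pools of sorted lung ILC2s. Per the labels' protocols, the SMART-Seq HT kit gave full-length cDNA. Per the submitters' processing notes, HISAT2, Cufflinks and mm10 were used, without stated roles. How reads were counted and filtered is not given. The authors' deposited values are, per the file headers, baseMean (a signal, the mean normalized count), the log2 fold change with its standard error (log2), the test statistic (a score) and a p-value before and after adjustment. The headings are those of DESeq2, per the file headers. The 8 columns of values per library match no sample label and were not used, so depth was not analysed here and the planned edgeR test gave way to the authors' deposited two-sided test.

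The deposited adjusted p differed from a Benjamini-Hochberg adjustment over 19193 genes by at most 3.96e-05. Genotype means were derived from baseMean and fold change with equal weight, and 95% intervals from the standard error under a normal distribution. Exonic lengths, positions and overlaps came from GENCODE M21 (mm10). Alternatives were computed with Python 3.11.15 and scipy 1.17.1. Adjustment and centring had first been tested on simulated data with the same shift for all genes. That simulation could not test centring where the shift varies with mean normalized count, as it does here. List symbols missing from the table were matched by gene ID. Named genes were the 10 members, Nrp1, up to 3 genes per pathway list with the smallest p, any past the test, and the most abundant marker of each list. One gene that this rule names is not reported here. Cd3e, Cd4, Cd8a, Trbc2, Foxp3, Ctla4 and Gm16008 were named after values were seen or for their role or position. Members and lists were chosen with earlier results of these data known.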

Additional observations from a re-analysis of the deposited data

How the results depend on the processing

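None of the 10 genes passed in any setting run, where adjusted p ranged from 0.141 to 1.000. Filters, protein-coding genes alone and the threshold of 0.1 left all log2 values as deposited. Centring on genes with a mean normalized count of at least 1000 turned Icos (0.16), Cd28 (0.14), Icosl (0.25) and Cd27 (0.11) above 0, and centring on the 200 genes nearest in that mean, chosen after seeing the data, did so too (0.15, 0.10, 0.24 and 0.015); the other 6 kept their direction, and the shift is the construction of these settings. Genes higher, lower and in all numbered 87, 19 and 106 as deposited. They were 21, 2 and 23 with no filter, 22, 13 and 35 at a mean of 50 or more, 39, 17 and 56 for protein-coding genes, 225, 2 and 227 when centred on abundant genes, 20, 2 and 22 when centred on the 200 nearest, and 266, 40 and 306 at a threshold of 0.1. At 0.1, 1 CD28 and ICOS signalling gene, Pik3cd, was lower, against 0 as deposited, and every other count over the 4 pathway lists was 0 in the planned settings run, while marker lists were not recomputed. Per kb of the longest transcript, normalized counts were 153 for Cd28, 638 for Icosl, 1027 for Tnfrsf9, 4474 for Tnfrsf18, 1362 for Tnfrsf25, 226 for Cd27 and 2545 for Traf1, more than the standard error of their fold change away from the value per kb of exon, since that length is shorter. Derived means differed from the mean over genotypes by more than that error for Tnfrsf9 (657 in KO, 939 in WT), Tnfrsf25 (819.8 in KO, 1168 in WT), Traf1 (855 in KO, 1128 in WT) and Tnfrsf18 in KO (2939.8). Because these means were derived from the fold change itself, that difference restates its size against its error and adds no information. No paired analysis was possible because the library columns carry codes that match no sample label. For the same reason leaving out each replicate, and edgeR against DESeq2, were not run, and the limit that depth sets is unknown here.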
